A study of Mus musculus with 11 samples.

Results

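The Entpd4 locus of mouse chromosome 14 was described here in bulk mouse embryonic stem cells (mESC) as the number of sequencing reads it received in 11 low-coverage whole-genome libraries. Its members were the deposited bins of about 50 kb whose midpoint lay between 69.2 and 69.8 Mb (mm10), which gave 12 of 52958 bins. The region was selected on its relative depth by genotype and stage in these same libraries, so the depth differences of its bins are given as a description and without a test. The 80 bins within 2 Mb on either side served as flanks.

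Control cells (Ctrl) carried Cre/ERT2, a Cre recombinase that tamoxifen activates, and Rosa26-LSL-H2b-Egfp, a green nuclear reporter that Cre switches on. Tet iTKO cells carried both of these alleles and in addition floxed Tet1, Tet2 and Tet3 (Tet1,2,3 fl/fl), so that tamoxifen deletes exons of all TET genes. Both genotypes were sequenced before treatment (1 library each), after acute treatment with 1 µM tamoxifen for 2.5 days and 4 more days of culture (1 library each), and as monoclonal populations kept for 30 days (3 libraries each). The monoclonal populations of Ctrl and Tet iTKO cells had also received the same dose of tamoxifen for the same number of days. Dnmt TKO cells (Dnmt1,3a,3b TKO), which lack the DNA methyltransferases Dnmt1, Dnmt3a and Dnmt3b, were not induced. They gave 1 library of the long-term comparison. Cre/ERT2 was driven by the human ubiquitin C promoter in the mice from which the lines were derived, and the cells of every group were grown in 2i medium on mouse embryonic fibroblast feeders. Ctrl and Tet iTKO cells are described as sorted as CD326+, GFP+ and Thy1.2-, and Dnmt TKO cells as CD326+ and Thy1.2-. The paper takes GFP as the mark of recombination under tamoxifen, so a GFP+ sort of the untreated pre-treatment cells is unexplained. The Dnmt TKO line had another origin than the other cells, and the 3 long-term libraries of a genotype are each labelled as one of its monoclonal populations, without naming the clone. The pre-treatment and acute libraries are called early below. The early Tet iTKO libraries are thus 1 that had not received tamoxifen and 1 that had.

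Entpd4 encodes ectonucleoside triphosphate diphosphohydrolase 4, an enzyme of the Golgi and lysosomal membranes that removes terminal phosphates from nucleoside di- and triphosphates. In the Golgi, such enzymes convert the diphosphates left over from sugar transfer to monophosphates, which are exchanged for fresh nucleotide sugars. The mouse reference assembly carries a second, almost identical gene, Entpd4b, next to it. Segmental duplications of this kind are known to differ in copy number between mouse strains.

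In GRCm38 (the same assembly as mm10), Entpd4 (chr14:69337174-69367270, plus strand) and Entpd4b (chr14:69555424-69585520, plus strand) lay in a direct tandem duplication. Copy 1 spanned chr14:69254285-69472534 (218250 bases) and copy 2 chr14:69472535-69690811 (218277 bases), with 0 bases between them. Over 218250 aligned bases the copies were 99.9991% identical and differed by 2 substitutions and 1 insertion of 25 bases in copy 2. The other 2 bases of the 27 by which the lengths differ were the last 2 of copy 2, GG, which also open both copies. The 80 bases at each boundary (plus strand, 5′ to 3′) are shown because they mark where the repeated sequence begins and ends, and capitals mark the last or first 40 bases of the copy named.
Left edge, start of copy 1 in capitals, chr14:69254245-69254324: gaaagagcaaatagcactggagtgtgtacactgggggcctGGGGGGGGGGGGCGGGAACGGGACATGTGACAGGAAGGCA
Junction, end of copy 1 in capitals and start of copy 2 in lower case, chr14:69472495-69472574: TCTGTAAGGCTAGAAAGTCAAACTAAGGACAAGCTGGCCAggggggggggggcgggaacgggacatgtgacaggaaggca
Right edge, end of copy 2 in capitals, chr14:69690772-69690851: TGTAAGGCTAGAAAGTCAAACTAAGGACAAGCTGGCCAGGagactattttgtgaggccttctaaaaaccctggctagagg
The sequence that opened copy 1 recurred directly after the junction, and the sequence that closed copy 1 recurred at the right edge. By the GENCODE M21 annotation these windows lay outside exons, inside Slc25a37 (left edge), Gm16867 and Gm21451 (junction) and Loxl2 (right edge).

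The 3 places at which the copies differ are shown because a read from inside one copy could be assigned to it only there. Reads that cross the junction or an outer edge are the exception. Differing bases are in capitals, each with 20 bases on either side, and positions are counted from 1 at the first base of each copy. Written with the base of copy 1 first, the substitutions were C125816A and C137096T, the position being that in copy 1.
First substitution, copy 1, chr14:69380080-69380120: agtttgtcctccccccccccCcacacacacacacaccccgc
First substitution, copy 2, chr14:69598330-69598370: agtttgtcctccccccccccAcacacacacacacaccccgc
Insertion site, copy 1, chr14:69387940-69387979: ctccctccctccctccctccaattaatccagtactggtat
Insertion site, copy 2, chr14:69606190-69606254: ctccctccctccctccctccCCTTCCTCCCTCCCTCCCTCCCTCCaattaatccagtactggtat
Second substitution, copy 1, chr14:69391360-69391400: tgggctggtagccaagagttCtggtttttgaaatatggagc
Second substitution, copy 2, chr14:69609635-69609675: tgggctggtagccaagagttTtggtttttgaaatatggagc
The first substitution and the insertion lay in low-complexity runs. None of the 3 differences fell in an exon, and 0 fell within Entpd4 or Entpd4b, whose annotated spans of 30097 bases began at base 82890 of their copies and lay 12.8 kb from the nearest difference. Reads from Entpd4 and Entpd4b therefore could not be told apart, and the depth at either address is a share of their summed copies.

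Of the 12 bins, 8 lay wholly inside the duplication, 2 straddled its outer edges (20.1% and 53.1% inside) and 2 lay beyond it. In the 8 bins inside, 96.6 to 99.3% of all 50-base words occurred exactly 2 times in the genome, against 0.0480 to 3.76% in the flanks. GC content was 45.0 to 48.8% in these 8 bins and 37.9 to 52.8% in the flanks, and repeat masking covered 19.04 to 23.3% of these bins and 15.6 to 56.4% of the flank bins. Because the reference already holds the sequence 2 times per haploid set, 4 copies in a diploid genome correspond to a relative depth of 1, and relative depth times 4 is given below as copies.

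Relative depth is the mean depth of a region divided by the median depth of the autosomal bins of the same library. The libraries held 555 to 812 megabases of mapped sequence, 215 to 315 reads in the median bin, and 1602 to 3708 reads in the locus. The X chromosome was at a relative depth of 0.560 to 0.592 in all 11 libraries. The Y chromosome was at 0.0269 to 0.0381 in the 4 early libraries, 0.457 in Dnmt TKO, 0.463 to 0.470 in the long-term Ctrl libraries and 0.549 to 0.558 in those of long-term Tet iTKO. Early and long-term cells of a genotype thus differed in more than time in culture, and stage and origin of the cells cannot be told apart.

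**Figure D1:**
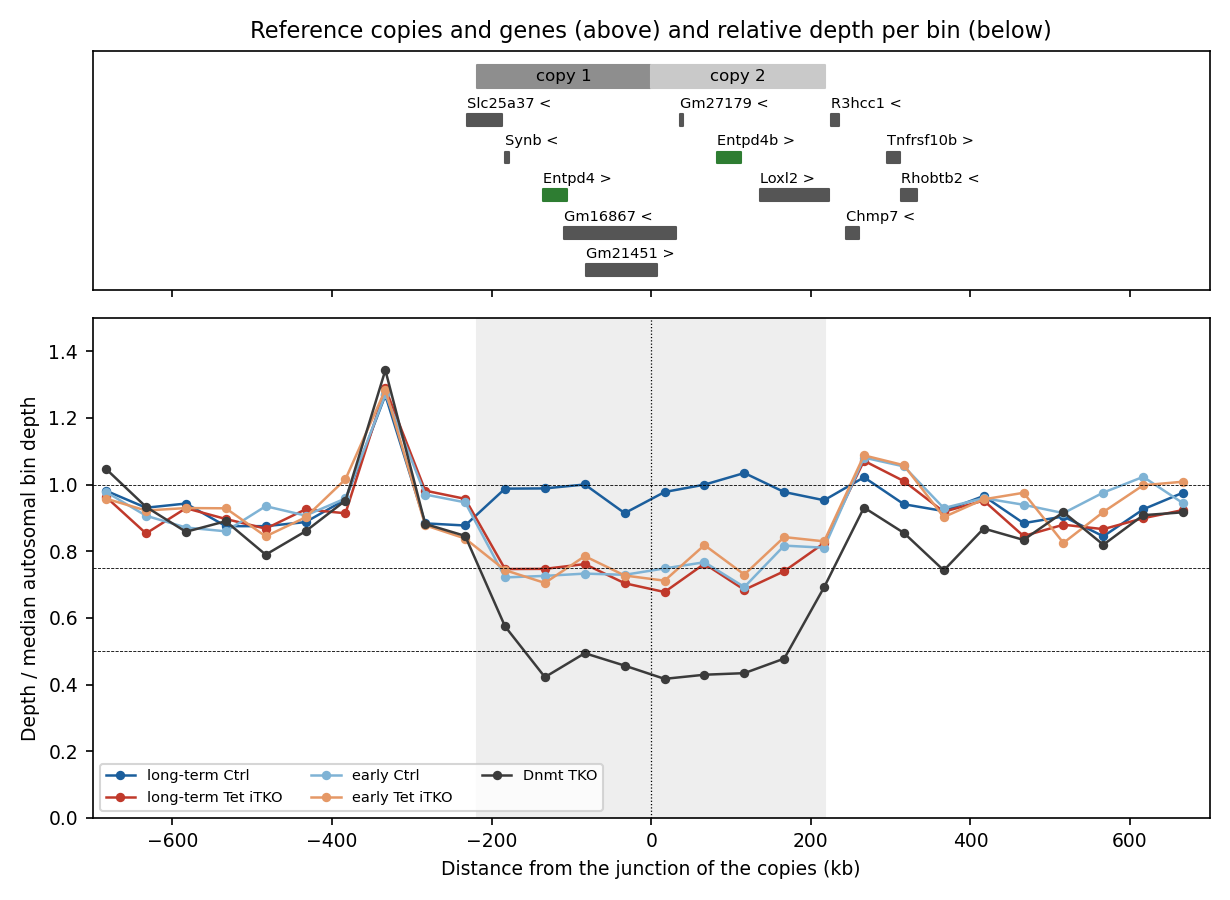
The upper part maps the 2 reference copies (grey bars), the protein-coding genes and the pseudogene Gm21451 (Entpd4 and Entpd4b in green, > for plus and < for minus strand) by distance from the junction of the copies in kb. The lower part plots relative depth per bin (depth over the median autosomal bin depth) as the mean of the libraries of each group (3 long-term Ctrl, 3 long-term Tet iTKO, 2 early Ctrl, 2 early Tet iTKO, 1 Dnmt TKO). The groups part inside the shaded duplication, where long-term Ctrl lies near 1, early cells and long-term Tet iTKO near 0.75 and Dnmt TKO below 0.6. Outside it they lie closer together.

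Over the 8 bins inside the duplication, the 11 libraries fell at 3 levels. Long-term Ctrl was highest, with relative depths of 0.995, 0.975 and 0.985 in its 3 libraries. Long-term Tet iTKO was lower, at 0.703, 0.740 and 0.740. Early libraries were at 0.748 (pre-treatment Ctrl), 0.735 (acute Ctrl), 0.758 (pre-treatment Tet iTKO) and 0.757 (acute Tet iTKO). The Dnmt TKO library was lowest, at 0.463, with a 95% Poisson interval of 0.433 to 0.496 that covers counting error only. The 3 long-term Ctrl libraries did not overlap with any other library, and neither did Dnmt TKO. The other 7 libraries lay between 0.703 and 0.758, a range over which each library's counting interval overlapped with that of the others.

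In copies, long-term Ctrl held 3.94 ± 0.041 (SD, n = 3), early libraries 3.00 ± 0.042 (SD, n = 4), long-term Tet iTKO 2.91 ± 0.085 (SD, n = 3) and Dnmt TKO 1.85. The flanks were slightly below the autosomal median, at 0.921 in Dnmt TKO and at 0.954 to 0.981 in the other 10 libraries. Set against the flanks of the same library instead, which needs no assumption about the rest of the genome, the values in the same order were 4.05 ± 0.043 (SD, n = 3), 3.08 ± 0.031 (SD, n = 4), 3.01 ± 0.12 (SD, n = 3) and 2.01 copies per pair of flanking sequences. The whole numbers nearest to these means were 4, 3, 3 and 2.

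**Figure D2:**
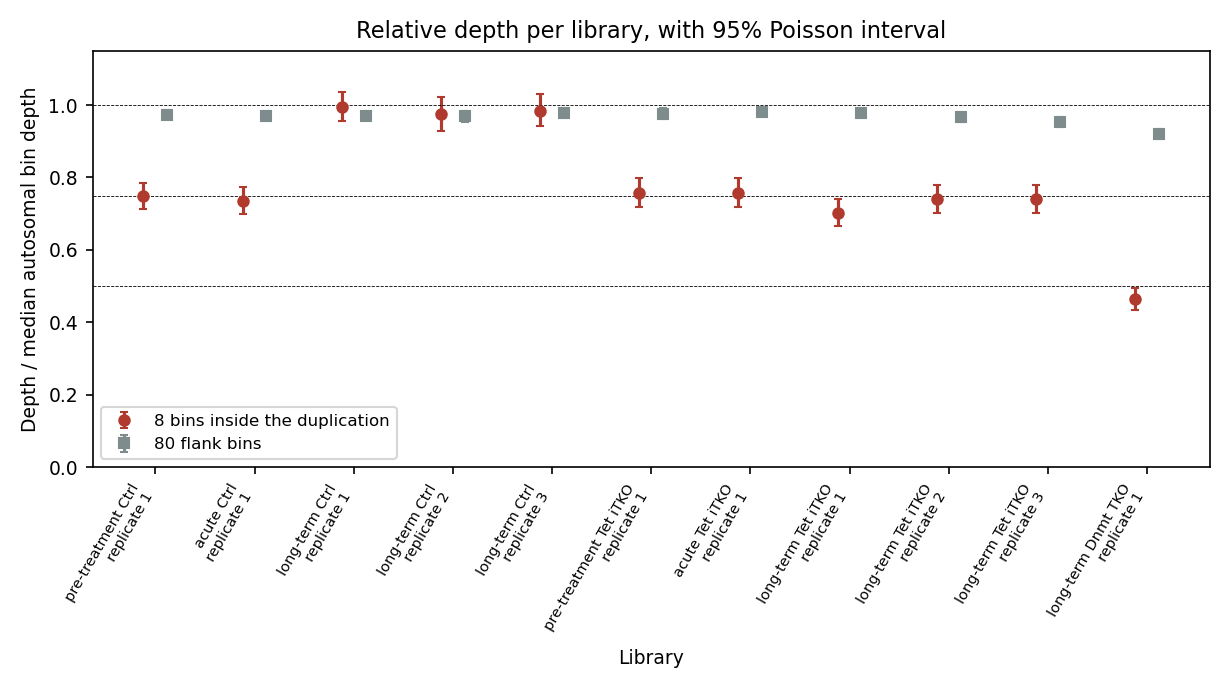
Relative depth (depth over the median autosomal bin depth) of the 8 bins inside the duplication (red circles) and of the 80 flank bins (grey squares) in each of the 11 libraries, with 95% Poisson intervals that cover counting error only. Broken lines mark 0.5, 0.75 and 1. The red circles sit at 0.975 to 0.995 in long-term Ctrl, at 0.703 to 0.758 in 7 libraries and at 0.463 in Dnmt TKO, while the grey squares stay between 0.921 and 0.981.

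The first comparison asked how Tet iTKO and Ctrl populations differed after long culture, and it was the one with replicates. The paper derives the Ctrl and Tet iTKO lines from embryos of different matings. Their Y chromosome depth did not overlap, at 0.463 to 0.470 in long-term Ctrl and 0.549 to 0.558 in long-term Tet iTKO. Genotype and line of origin therefore cannot be told apart in this comparison, and the replicates do not separate them. Over the whole locus, relative depth was 0.980, 0.959 and 0.979 in long-term Ctrl and 0.777, 0.825 and 0.819 in long-term Tet iTKO, without overlap. The log2 difference was -0.27 (SE 0.029, n = 3 a group) for the 12 bins and -0.44 (SE 0.026) for the 8 bins inside the duplication, where depth in Tet iTKO was 0.739 times that in Ctrl. Single bins inside differed by -0.60 to -0.37 on the log2 scale with a median of -0.40. In limma across 47921 autosomal bins, 64 bins had an adjusted p under 0.05 (0.134% of bins), 49 of them lower in Tet iTKO (0.102%) and 15 higher (0.0313%). Without long-term Tet iTKO replicate 3, 110 bins were called, 95 of them lower. All 8 bins inside the duplication were among the lower ones, and the other 4 bins of the locus were not called, but this contrast had chosen the locus and nothing is read from that count.

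The genes of copy 1 and copy 2 carried this difference alike. In the 2 bins over Entpd4, relative depth was 0.988, 1.00 and 0.990 in long-term Ctrl and 0.710, 0.754 and 0.799 in long-term Tet iTKO. In the 2 bins over Entpd4b it was 1.04, 1.01 and 1.00 in long-term Ctrl and 0.705, 0.735 and 0.730 in long-term Tet iTKO. The groups did not overlap at either gene, and the log2 differences were -0.40 (SE 0.050) at Entpd4 and -0.49 (SE 0.024) at Entpd4b. Since nearly no read can be assigned to one copy, the gap between the 2 genes says nothing of which copy was present. Copy 2 bins over copy 1 bins gave a ratio of 0.918 to 1.12 over the 11 libraries, with a median of 1.02, and the ratio was above 1 in 8 of 11.

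Other protein-coding genes of the duplication shared its depth. Synb, which encodes the placental fusion protein syncytin B, was at 0.988 ± 0.11 in the long-term Ctrl group and 0.746 ± 0.019 in the long-term Tet iTKO group (SD, n = 3 each). Its counterpart in copy 2, Gm27179, was at 0.977 ± 0.060 and 0.677 ± 0.10 (SD, n = 3 each) in the bin at the junction. Gm16867, which runs across the junction, was at 0.970 ± 0.011 and 0.722 ± 0.039 (SD, n = 3 each). Loxl2, a secreted lysyl oxidase that cross-links collagen and of which 94.2% lies in copy 2, was at 0.988 ± 0.026 and 0.749 ± 0.037 (SD, n = 3 each). Each gene was read from 1 to 4 bins that also hold its neighbours, so these are levels of bins and not independent measurements of genes.

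Genes at the borders showed less or none of this. Slc25a37, which encodes the mitochondrial iron importer mitoferrin-1 and has 71.3% of its length in copy 1, was at 0.932 ± 0.077 in long-term Ctrl and 0.852 ± 0.022 in long-term Tet iTKO (SD, n = 3 each), and its groups overlapped. R3hcc1 lay outside copy 2 but shared its only bin with the end of the duplication, and was at 0.953 ± 0.054 and 0.824 ± 0.061 (SD, n = 3 each). Chmp7, an ESCRT-III related factor of the nuclear envelope, was at 1.02 ± 0.043 and 1.07 ± 0.014 (SD, n = 3 each). Tnfrsf10b, a TRAIL death receptor, and Rhobtb2 shared a bin at 0.941 ± 0.0093 and 1.01 ± 0.084 (SD, n = 3 each). In the last 2 bins, wholly beyond the duplication, long-term Tet iTKO was thus not lower than Ctrl, with log2 differences of 0.07 and 0.10. Over these 2 bins together it was higher without overlap, at 1.01 to 1.10 against 0.964 to 1.00 in long-term Ctrl. Early Ctrl lay above long-term Ctrl there, also without overlap (long-term minus early log2 difference -0.12), and Dnmt TKO was at 0.893.

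**Figure D3:**
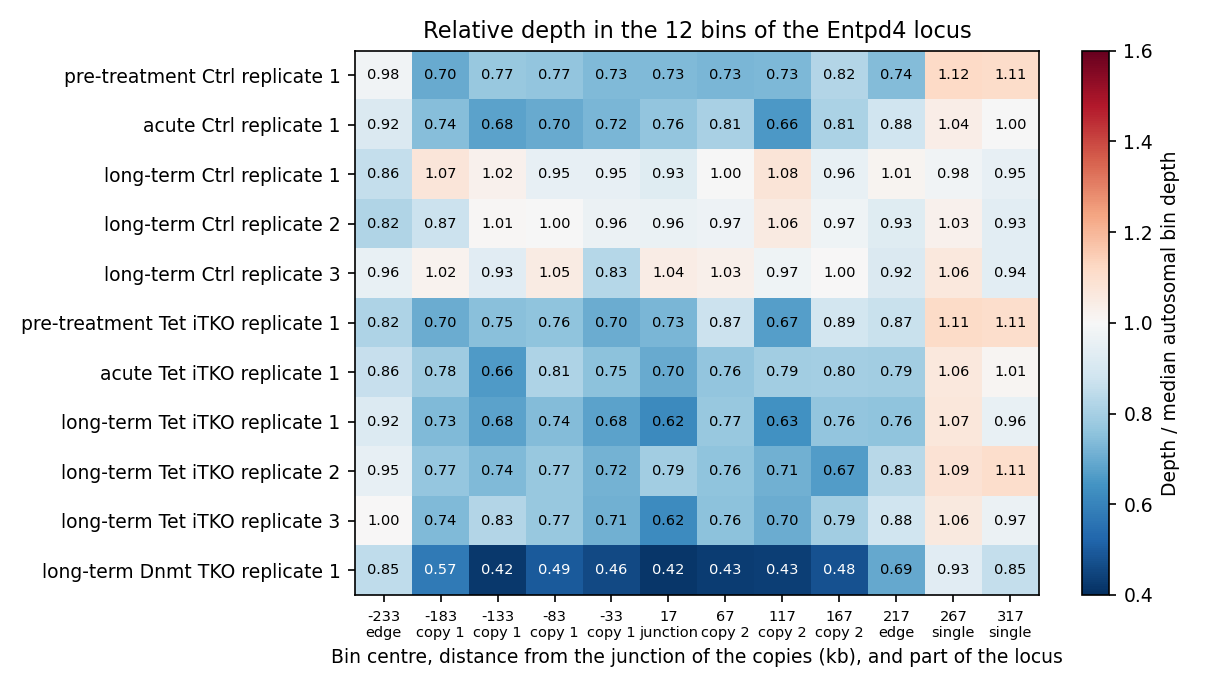
Relative depth (depth over the median autosomal bin depth, colour scale and printed value) of the 12 bins of the locus (columns, by distance of the bin centre from the junction of the copies in kb and by part of the locus) in each of the 11 libraries (rows). The 8 columns marked copy 1, junction or copy 2 hold 0.83 to 1.08 in long-term Ctrl, 0.62 to 0.89 in the early and long-term Tet iTKO libraries and 0.42 to 0.57 in Dnmt TKO, and the 2 columns marked single hold no such step.

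The edge bins can be set against a mixture of the levels on either side. For the right edge bin (53.1% inside), weighting the level of the 8 bins and of the flanks by these shares gives 0.979 for long-term Ctrl, 0.839 for long-term Tet iTKO, 0.855 for early cells and 0.678 for Dnmt TKO. The measured means were 0.953, 0.824, 0.820 and 0.692. Single libraries departed from their weighted value by -0.11 to 0.040. For the left edge bin (20.1% inside), the weighted value was 0.975 in long-term Ctrl and 0.918 in long-term Tet iTKO, and the measured means were 0.877 and 0.957, the opposite order. There the 3 long-term Ctrl libraries lay between 0.818 and 0.956 and the 3 long-term Tet iTKO libraries between 0.919 and 1.00, so the 2 groups overlapped. The flank bin just outside the left end of the locus was at 0.883 in long-term Ctrl and 0.982 in long-term Tet iTKO, and the bin just outside the right end at 0.920 and 0.918.

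Bins varied within a group about as much as counting allows. The spread of single bins inside the duplication between replicate libraries was 0.091 (pooled SD, log2) in long-term Ctrl and 0.11 in long-term Tet iTKO. Counting error alone gives 0.092 and 0.11 for these read numbers. The same held in the flanks, with 0.086 and 0.085 measured and 0.092 and 0.095 from counting.

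The flanks, which were not members of the locus, were tested in the same fit. Of 80 flank bins, 0 were called by limma at an adjusted p under 0.05, the smallest adjusted p being 0.726, and 5 had an unadjusted p under 0.05. Of all 47921 bins, 0.134% were called and 2909 had an unadjusted limma p under 0.05, so 0 of 80 says little of the flanks. The log2 differences of the flank bins ran from -0.17 to 0.19 with a median of -0.02 and a median SE of 0.074. Over all 80 bins, long-term Ctrl was at 0.972 ± 0.0049 and long-term Tet iTKO at 0.966 ± 0.012 (SD, n = 3 each). Chromosome 14 outside the locus and its flanks was at 1.02 in both groups.

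**Figure D4:**
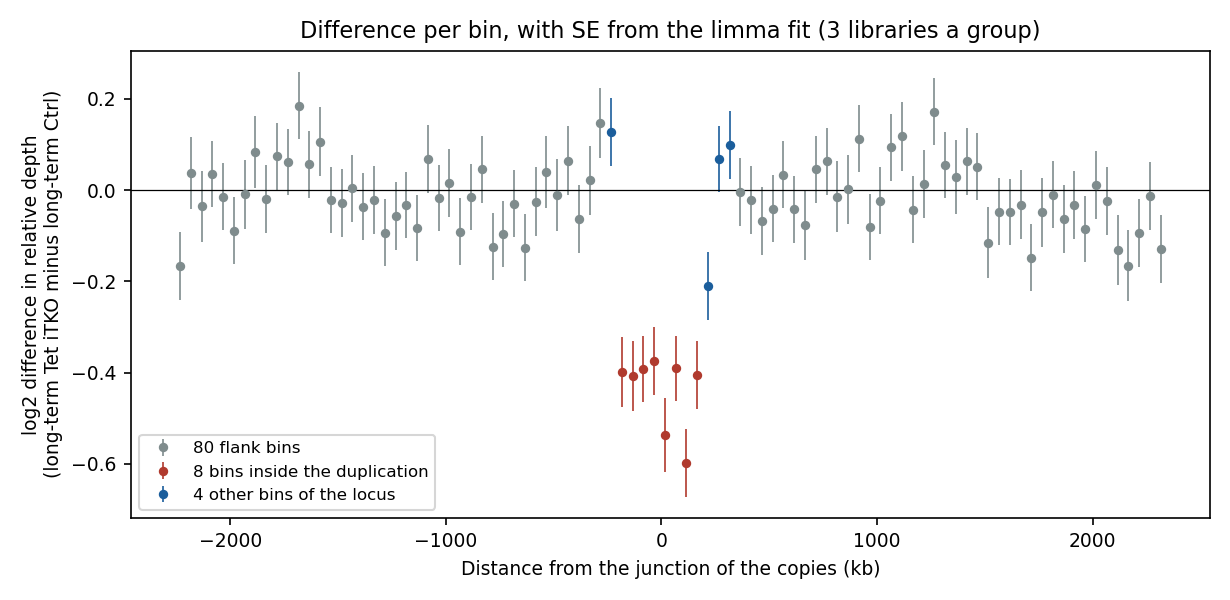
Log2 difference in relative depth, long-term Tet iTKO minus Ctrl (vertical axis, with the SE of the limma fit, 3 libraries a group) of single bins by distance from the junction of the copies in kb. The 8 bins inside the duplication (red) lie between -0.60 and -0.37, the 80 flank bins (grey) between -0.17 and 0.19, and of the other 4 bins (blue) the right edge bin at -0.21 lies below the flanks.

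The second comparison set the long-term against the early libraries of each genotype, which include an untreated library. Early and long-term libraries also differed in Y chromosome depth, so time in culture and origin of the cells cannot be told apart in this comparison. In Ctrl, the 8 bins inside the duplication were at 0.748 and 0.735 in the early libraries and at 0.975 to 0.995 in the 3 long-term libraries, a log2 difference of 0.41 or 1.33 times the depth. In Tet iTKO, the same bins were at 0.758 and 0.757 in the early and at 0.703 to 0.740 in the long-term libraries, a log2 difference of -0.06 or 0.960 times the depth. All 3 long-term Tet iTKO libraries lay below both early ones, but the counting intervals of these 5 libraries overlapped. Over all 12 bins the differences were 0.25 in Ctrl and -0.03 in Tet iTKO, and in Tet iTKO the libraries overlapped. The flanks differed by 0.0013 in Ctrl and by -0.02 in Tet iTKO on the log2 scale.

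A bin was counted as past the fold when its log2 difference was 0.25 or more and its groups did not overlap. From early to long-term Ctrl, 0.367% of the 47921 bins were past it in the upward direction, and 8 of the 12 locus bins were, all of them inside the duplication. In the downward direction the shares were 0.213% of all bins and 0 of the 12. From early to long-term Tet iTKO, 0.288% of bins were past it upward and 0.269% downward, and 0 of the 12 locus bins. No flank bin was past the fold in either genotype. The rule used depth by stage, so these counts too are a description.

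The early libraries addressed whether the genotypes or the acute treatment differed before long culture. Of the early Tet iTKO libraries only the acute one had received tamoxifen, so the group is not one of deleted cells alone. Over the 8 bins inside the duplication, early Tet iTKO lay 0.03 above early Ctrl on the log2 scale, and 0 of the 12 locus bins were past the fold in either direction, against 0.484% of bins upward and 0.515% downward. Acute against pre-treatment cells differed by -0.02 in Ctrl and by -0.0018 in Tet iTKO, with 1 library a stage and hence no replicate error. At Entpd4 the values were 0.769 before and 0.690 after acute treatment in Ctrl, and 0.752 and 0.737 in Tet iTKO. At Entpd4b they were 0.728 and 0.731 in Ctrl, and 0.772 and 0.777 in Tet iTKO. The 95% Poisson intervals at Entpd4 were 0.700 to 0.843 in pre-treatment Ctrl and 0.620 to 0.766 in acute Ctrl, so a difference between them was not detectable at this depth.

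The Dnmt TKO library was compared with long-term Ctrl, since both were long-term samples. The 8 bins inside the duplication were at 0.463 against 0.985 ± 0.010 (SD, n = 3), a log2 difference of -1.09 or 0.470 times the depth. Entpd4 was at 0.458 and Entpd4b at 0.432. Synb was the least low of the genes wholly inside the duplication, at 0.574 in a bin that is wholly inside copy 1. The log2 difference of single bins ran from -1.25 to -0.78 inside the duplication. Bins were counted here by a log2 difference of 0.25 or more from the Ctrl mean, without the condition on overlap. Lower by that fold were 9 of the 12 locus bins, the 8 inside and the right edge bin. Beside them stood 4.26% of all bins and 5 of 80 flank bins. Higher by that fold were 5.7% of all bins, 1 flank bin and 0 of the 12. With 1 Dnmt TKO library this difference has no replicate check, and genotype and line of origin cannot be told apart.

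Genes of the same enzyme family and the related nucleotidase Cant1, all elsewhere in the genome, were examined as a list chosen for this report. They were Entpd1, Entpd2, Entpd3 and Entpd8, which act on extracellular nucleotides at the cell surface, Entpd5 and Entpd6, of the endoplasmic reticulum and Golgi, Entpd7, an intracellular member, and Cant1, a calcium-activated nucleotidase of the Golgi. Their relative depth lay between 0.817 and 1.25 over all libraries and genes. The long-term difference of Tet iTKO from Ctrl ran from -0.10 (Entpd6) to 0.01 (Entpd5) on the log2 scale, and the Dnmt TKO difference from -0.15 (Entpd1) to 0.10 (Entpd3). Of the 14 bins that overlap them, 0 were called by limma, the smallest adjusted p being 0.776, and 2 had an unadjusted p under 0.05. Of all 47921 bins, 0.134% were called and 2909 had an unadjusted limma p under 0.05, so 0 of 14 says little of these genes. In the early to long-term comparison of Ctrl these genes differed by -0.08 (Entpd7) to 0.12 (Entpd8).

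The bins whose pattern was most like that of the locus lay elsewhere on the same chromosome. Among 2834 autosomal bins outside the locus and flanks with an SD of at least 0.15 (log2) over the libraries, the 5 with the highest Pearson correlation with the locus over the 11 libraries all lay on chromosome 14 between 25902793 and 26298546. They overlapped Cphx3 (r = 0.960, 0.960 and 0.922), Cphx1 (r = 0.945) and Duxbl3 (r = 0.928), homeobox genes of a multicopy cluster. The bin with r = 0.945, over Cphx1, was at 0.412 in Dnmt TKO, 0.716 to 0.941 in the early libraries, 0.790 to 0.931 in long-term Tet iTKO and 1.31 to 1.42 in long-term Ctrl. Of all candidates, 17 had an r above 0.9. These correlations are a description over 11 libraries that fall into separate levels and share the scaling by their autosomal median.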

How the data were processed

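The authors mapped trimmed single-end reads of PCR-free libraries to mm10 (BWA-mem) and took out optical duplicates (Picard). The deposited depth signal is the mean coverage of 52958 bins (median 49.992 kb) per library, not corrected for GC content or mappability. The log2 column deposited by the authors equalled the log2 of that depth to within 4.05e-05 and was not used further. Base sums were multiples of 50 in 95.1% of 3200 bin values under 400 bases, and read numbers are bases divided by 50. The study's methods name a longer minimum length for mapped reads, and longer reads would make read numbers smaller and the Poisson intervals and counting errors wider than printed. How BWA-mem reads with equal placements were treated is not given in the sources used here.

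Depth of a region was the length-weighted mean over its bins divided by the library's median autosomal bin depth. The tandem copies were found by comparing the GRCm38 sequence with itself, and 50-base words were counted over both strands of the genome (numba 0.67.0, numpy 2.4.6, pandas 2.3.3 and scipy 1.17.1 in Python 3.11.15). Annotation was GENCODE M21. A limma 3.58.1 fit in R 4.3.3 tested single bins of the 6 long-term libraries (log2 relative depth, lmFit with eBayes, two-sided, Benjamini-Hochberg over 47921 autosomal bins of at least 25 kb and mean relative depth of at least 0.5; 3 bins were left out), after a test on simulated data. Groups came from the labels. Nothing says that replicate libraries are separate cultures beyond their monoclonal label, so p-values measure the spread between these libraries. Poisson intervals are at 95%.

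Members, gene lists and tests were chosen with earlier results of these data known. Named genes were Entpd4, Entpd4b, every protein-coding gene of a locus bin, those of called flank bins, the Entpd family with Cant1, and the 5 bins most like the locus. The 3 same-numbered long-term pairs had correlations of 0.00103, -0.00508 and 0.0019, which gave no sign of pairing by number. Bins varied within a group about as counting allows, so this check could hardly have shown pairing. Alternatives covered GC correction, scaling, summary, filter, pseudocount, limma settings, replicate block and left-out libraries.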

Additional observations from a re-analysis of the deposited data

Results flagged for a closer look

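In the 8 bins inside the duplication, every long-term Ctrl library lay above both early Ctrl libraries and every long-term Tet iTKO library lay below both early Tet iTKO libraries. The long-term minus early log2 difference of Ctrl exceeded that of Tet iTKO by 0.468. This difference between genotypes was not tested. Nearly all of it came from Ctrl, whose own difference was 0.41, while that of Tet iTKO was -0.06. The relative depth of the Y chromosome was 0.0269 to 0.0381 in the early libraries and 0.463 to 0.558 in the long-term libraries of both genotypes, so stage and origin of the cells cannot be told apart here.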

How the results depend on the processing

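Differences are log2 relative depth over the 12 bins unless stated, and the bins inside the duplication were added after seeing the data. The long-term Tet iTKO minus Ctrl difference of -0.27 became -0.35 as the median over bins, -0.45 over the Entpd4 and Entpd4b bins and -0.44 inside the duplication, since the 12 bins include 4 that are partly or wholly single-copy, and it ran from -0.29 to -0.24 with 1 long-term library left out. The long-term minus early Ctrl difference of 0.25 became 0.34, 0.46 and 0.41 in the same order. The Dnmt TKO minus long-term Ctrl difference of -0.73 became -0.65 scaled by the flanks, -1.003, -1.18 and -1.09. The acute minus pre-treatment Ctrl difference of -0.03 became 0.058 as the median over bins, and the cause was not tested. All autosomal bins called by limma numbered 64, 79 with the replicate block, and 46 to 110 with 1 library left out, the highest being without long-term Tet iTKO replicate 3. With the block, 0 flank bins and 0 bins of the Entpd family or Cant1 were called, as without it. Depth limits single bins, whose counting error of about 0.09 to 0.11 (log2) hides differences of that size in 1 library.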
